A study of Homo sapiens with 21 samples.

Results

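HNRNPK-bound RNA of the cytoplasm was compared with that of the nucleus in parental MDA-MB-231 cells. The comparison covers the 5846 genes that held 200 or more PAR-CLIP reads in the 2 parental libraries together and at least 1 cluster in the cytoplasmic library of *KRT19* KO cells, out of 15944 genes with a cluster in either parental library. The last condition was set because the parental cytoplasmic library holds loci that none of the other libraries covers. These members took 92.9% of the gene-assigned reads of the cytoplasmic library and 90.7% of those of the nuclear library.

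MDA-MB-231 is a long-established cell line of triple-negative breast cancer, and parental cells carry no engineered change of KRT19, the gene of the intermediate filament protein keratin 19. In *KRT19* KO cells this gene was disrupted with CRISPR/Cas9. Both lines were fed 4-thiouridine (4SU), a photoreactive uridine, and UV-crosslinked before fractionation, and HNRNPK was immunoprecipitated from each fraction with an antibody labelled as against HNRNPK and HNRNPJ, its putative splice form. The data hold 1 library for each of the parental cytoplasm, parental nucleus, *KRT19* KO cytoplasm and *KRT19* KO nucleus, so a difference between fractions and a difference between single libraries cannot be told apart, and no test was possible. Another 17 RNA-seq samples were not analysed here.

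PAR-CLIP reads a crosslinked 4SU as C in place of T, and a cluster is a stretch of overlapping reads with such changes. HNRNPK belongs to the heterogeneous nuclear ribonucleoproteins, binds C-rich single-stranded RNA through its KH domains and shuttles between nucleus and cytoplasm. In the nucleus it meets unspliced RNA, so introns are within its reach, whereas mature mRNA in the cytoplasm holds only the 5'UTR, the coding sequence and the 3'UTR. The reads of a gene in a fraction depend on how much of its RNA is there and on how much of it is bound, and these cannot be told apart here.

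The sites below are those with the most reads in 3 of the 10 genes with the highest cytoplasmic ratio described later, in 3 further mRNAs, in 4 of the 10 genes with the lowest ratio, and in 2 nuclear noncoding RNAs. They were chosen after their values were seen, and show 3'UTR sites with and without runs of C. All 4 intronic sites shown hold such a run and do not stand for intronic sites at large. CCC occurred in 44.5% of the nuclear intronic clusters of members. Each is a stretch of at most 30 bases of the deposited cluster around its conversion peak, equal to the hg19 (GRCh37) reference, written as DNA in the sense of the RNA, with runs of 3 or more C in capitals.
GCLM: aacctatatttttcatcattaacttcctaa
OSTC: ttcattaaaatatattccatatctacaact
PPIL1: catctctatatatattttCCCtctcaaaac
PPP1CB: caaatacttctaatttttttCCCtaaacat
SRSF1: acttttaagtctcaccttCCCCtttaaact
CCND1: attcttatCCCCtgCCCCttcctttaaaaa
EIF4A1: atatatctctCCCacatttCCCtaatcata
LAMA5: ctccaccatcaccttactCCCaCCCaaacc
CAD: caCCCCttccacctccacaccttcattcct
CHD3: cctCCCCatcatCCCCaaCCCCaaaccttg
MALAT1: ctatttactttaaataaaccaaacattcca
NEAT1: gtaCCCattaaataacattaaacattccat

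The first 6 sites lie in 3'UTRs. The GCLM site, at chr1:94351147-94351176 on the minus strand, held 2615 reads in the cytoplasm and none in a nuclear cluster. The OSTC site at chr4:109588685-109588714 (plus strand) held 2362 reads in the cytoplasm, and the PPIL1 site at chr6:36823057-36823086 (minus strand) held 1246, again with no nuclear cluster. The PPP1CB site at chr2:29022590-29022619 (plus strand) held 5589 cytoplasmic reads and no nuclear cluster. The other 3'UTR sites were read in both fractions, with 6906 and 433 reads at SRSF1 (chr17:56081769-56081798, minus strand) and 2235 and 92 reads at CCND1 (chr11:69467777-69467806, plus strand). The files list clusters from 5 reads and only with T-to-C changes, and not every cluster has a gene name, so a gene or site without a cluster is no zero.

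The next 4 sites are intronic and show the opposite order. EIF4A1 (chr17:7480312-7480341, plus strand) held 426 nuclear reads, LAMA5 (chr20:60924927-60924956, minus strand) 725 and CHD3 (chr17:7813365-7813394, plus strand) 236, each without a cytoplasmic cluster. The CAD intron site (chr2:27454288-27454317, plus strand) held 336 nuclear and 11 cytoplasmic reads. The leading sites of the noncoding RNAs split by fraction: MALAT1 (chr11:65272355-65272384, plus strand) held 4833 cytoplasmic reads and no nuclear cluster, and NEAT1 (chr11:65198491-65198520, plus strand) 1192 nuclear reads and no cytoplasmic cluster. The same 2 sites were split the same way in *KRT19* KO cells, with 3572 cytoplasmic reads at the MALAT1 site and 1298 nuclear reads at the NEAT1 site.

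The libraries differ in depth and in the share of unique sequences. The parental cytoplasmic library held 5551612 reads in clusters and the nuclear one 3537577, of which 30.9% and 20.0% were unique sequences. A T-to-C change was carried by 64.4% of cytoplasmic and 71.9% of nuclear reads in members. The cytoplasmic library also covered 215 bins of 100 kb with 5 or more clusters each where the other 3 libraries had none. They held 3418 clusters and 1.90% of its reads, and 19 members had clusters there. Another 135 genes with 200 or more reads were left out for want of a *KRT19* KO cytoplasmic cluster, 102 of them without a nuclear cluster. At the edge of the read minimum, 248 members with 200 to 219 reads had a median log2 ratio of cytoplasmic to nuclear share of -0.97, and 222 genes with 180 to 199 reads one of -0.56.

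The fractions differed in where along the gene HNRNPK was found. Clusters in 3'UTRs took 38.0% of member reads in the cytoplasm and 6.40% in the nucleus, a ratio of 5.94. Introns took 51.3% in the cytoplasm and 82.1% in the nucleus. The Wilson 95% intervals take in counting error alone and were 37.96 to 38.05% and 6.37 to 6.43% for the 3'UTR. In *KRT19* KO cells the order was the same, with 54.0% and 6.79% in 3'UTRs and 26.3% and 77.5% in introns. The cytoplasmic libraries of both lines are therefore the ones rich in 3'UTR reads, but introns remained the largest class in the parental cytoplasm.

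**Figure D1:**
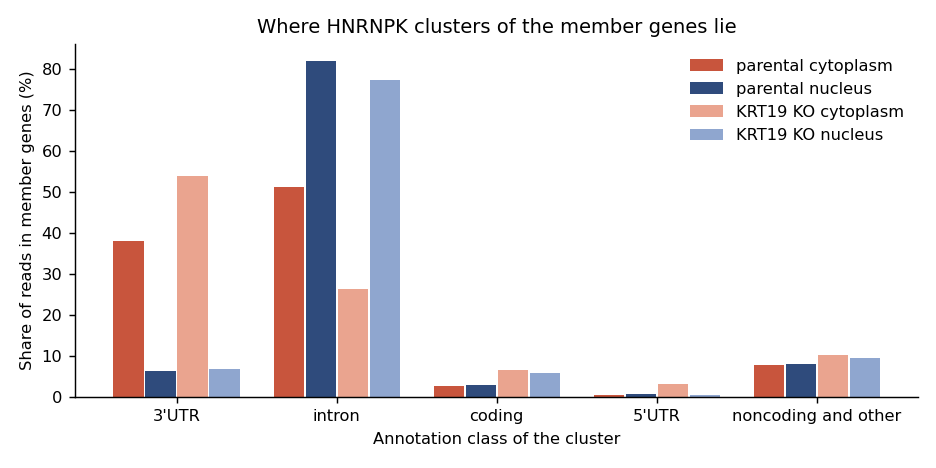
Share of the reads in member genes (y axis, %) by annotation class of the cluster (x axis), with 1 bar for each of the 4 libraries. The 3'UTR bars of the cytoplasmic libraries stand at 38.0% and 54.0%, those of the nuclear libraries at 6.40% and 6.79%.

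Coding clusters took 2.52% of member reads in the parental cytoplasm and 2.84% in the nucleus, and 5'UTR clusters 0.473% and 0.698%. Genes encoded by or copied from the mitochondrial genome set the order of both classes. Without the MT- and MTRNR2L genes the coding share was 2.20% in the cytoplasm and 1.77% in the nucleus, and the 5'UTR share 0.472% and 0.387%. Exons of long intergenic noncoding RNAs took 0.631% and 0.468%, and their introns 1.42% and 2.52%. Clusters annotated as small nucleolar RNAs, which guide modification of ribosomal RNA in the nucleolus, took 0.0273% in the cytoplasm and 0.0995% in the nucleus. RNY1, the Y RNA of the cytoplasmic Ro particle and the only member with clusters of the class of other small RNAs, took 0.579% and 0.0276%. It held 24985 reads in the cytoplasm and 737 in the nucleus, but 6.6% of the reads at its site carried a T-to-C change, and it has many near-identical copies in the genome, so its place is uncertain.

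One cluster weighs on the cytoplasmic class shares and on the total by which the cytoplasmic gene shares below are divided. SLCO5A1, a transporter gene, held 323758 reads in a single intronic cluster in the parental cytoplasm, none in the nucleus and 15 in the *KRT19* KO cytoplasm. Without it the cytoplasmic share of 3'UTRs was 41.1% and that of introns 47.4%. Counting clusters instead of reads gave 12.2% of cytoplasmic and 4.58% of nuclear clusters in 3'UTRs, so a cytoplasmic 3'UTR cluster held more reads on average than cytoplasmic clusters as a whole. The share of T-to-C reads was 52.9% in cytoplasmic and 64.5% in nuclear 3'UTR clusters, and 74.1% and 73.3% in introns. In the SLCO5A1 cluster 99.8% of the cytoplasmic reads carried a change. Without SLCO5A1 the cytoplasmic intronic share was 69.6%, below the nuclear one.

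For each gene, the share of gene-assigned reads in the cytoplasm was divided by that in the nucleus. Gene-assigned reads numbered 4650388 in the cytoplasm and 2945340 in the nucleus. A gene with somewhat more cytoplasmic than nuclear reads can therefore have a lower cytoplasmic share. Of 5799 members with a cluster in both libraries, 1006 (17.3%) were 2-fold or more higher in the cytoplasm and 1652 (28.5%) were 2-fold or more lower, and the median log2 ratio was -0.47. Another 41 members had a cytoplasmic cluster only and 6 a nuclear cluster only. Setting the median to 0 gave 1374 higher (23.7%) and 814 lower (14.0%), so the balance of the calls rests on the scaling. When clusters instead of reads were counted, the median was 0.018.

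Resolved by class, the medians differed while the ranges of the genes overlapped. The minimum was 50 reads of the class, summed over both libraries, so a gene could reach it through 1 fraction alone. Of the genes above it, 2327 had 3'UTR reads in both libraries, with a median log2 ratio of 2.28. Of these, 1734 (74.5%) were 2-fold or more higher in the cytoplasm and 145 (6.23%) lower. A further 643 had 3'UTR clusters in the cytoplasm alone and 14 in the nucleus alone. Intronic reads had a median of -0.96 over 5099 genes, with 106 (2.08%) higher and 2425 (47.6%) lower. Coding sequence lay between, with a median of 0.41 over 515 genes, 200 (38.8%) higher and 112 (21.7%) lower. For 80 genes with 5'UTR reads in both, the median was -0.25, with 20 (25.0%) higher and 29 (36.2%) lower.

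**Figure D2:**
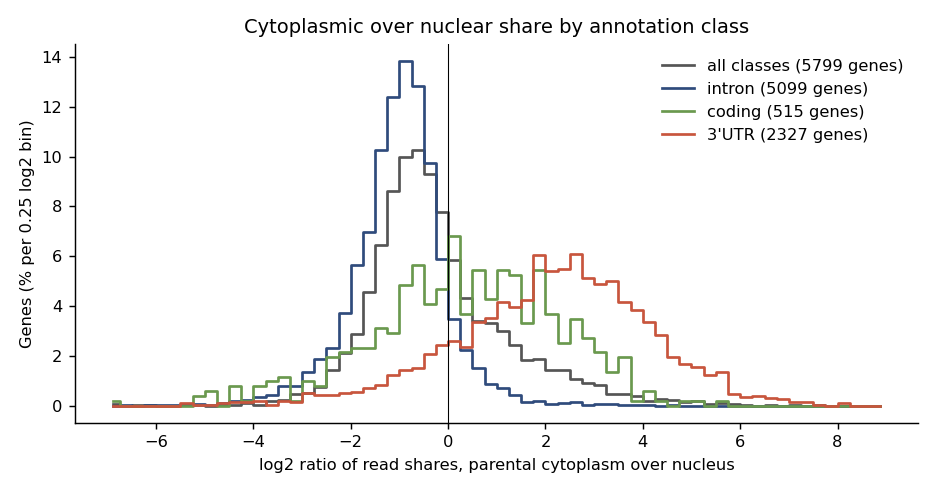
Distribution over genes of the log2 ratio of read shares, parental cytoplasm over nucleus (x axis, values beyond -7 and 9 placed in the end bins), as percent of genes per bin (y axis), for all reads of a gene and for its intronic, coding and 3'UTR reads. The intron line peaks below 0 (median -0.96) and the 3'UTR line lies mostly above 0 (median 2.28).

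The shift held inside single genes, where the scaling of the libraries has no part. It was measured in 1589 members with 100 or more 3'UTR and 100 or more intronic reads, summed over both libraries, and both classes in each library. A gene could thus reach the 3'UTR minimum through its cytoplasmic reads alone, and the part of this choice in the values was not tested. Of these members, 1518 (95.5%) had a higher ratio of 3'UTR to intronic reads in the cytoplasm. The median was 10.5-fold, with quartiles of 4.46- and 24.1-fold. In *KRT19* KO cells the same was seen for 1685 of 1709 members (98.6%), with a median of 20.8-fold. With a summed minimum of 50 reads per class, the 3'UTR also stood above the coding sequence of the same gene in 176 of 246 members (71.5%). The median was 2.53-fold. Coding sequence stood above introns in 362 of 479 (75.6%), with a median of 2.60-fold.

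**Figure D3:**
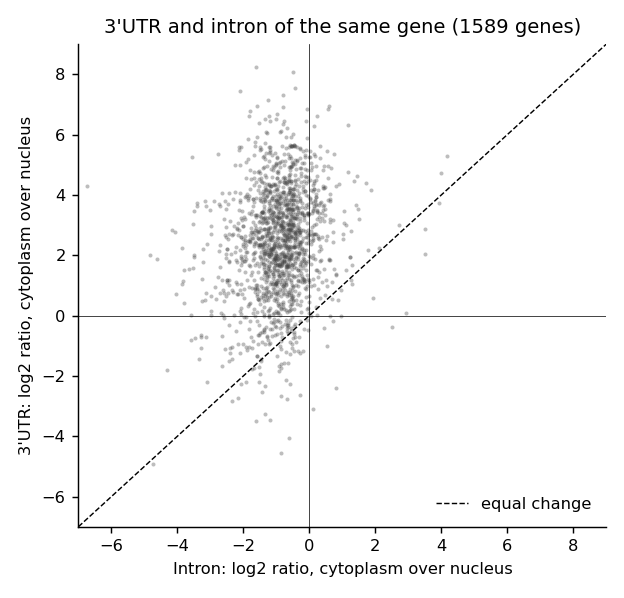
Log2 ratio of read shares, parental cytoplasm over nucleus, of intronic reads (x axis) against 3'UTR reads (y axis), 1 point for each of 1589 genes, with a dashed line of equal change. Of these, 1518 lie above the line and 71 below.

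The genes with the largest shift within the gene had few 3'UTR reads in the nucleus. CDC42SE1, a small effector of the GTPase CDC42, had 739 3'UTR and 5 intronic reads in the cytoplasm against 24 and 340 in the nucleus. PPP1CB, a catalytic subunit of protein phosphatase 1, had 7607 and 210 against 16 and 410, a 928-fold difference between the ratios. CMPK1, a nucleoside monophosphate kinase, had 1906 and 70 against 7 and 189. SKI, a co-repressor of TGF-beta signalling, had 425 and 24 against 7 and 178, and C1orf198 had 866 and 64 against 5 and 142. Their reads over the whole gene hide much of this: the log2 ratio of all reads was 0.37 for CDC42SE1 and 0.62 for SKI.

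Of the 71 genes with the opposite order, 18 had a 3'UTR-to-intron ratio at least 2-fold lower in the cytoplasm. RBM19, a nucleolar RNA-binding protein of ribosome assembly, had 7 3'UTR reads in the cytoplasm and 104 in the nucleus, beside 350 and 402 in introns. The splicing regulator RBPMS had 10 and 106 3'UTR reads, beside 1381 and 1352 in introns. CCNT2, a cyclin of the transcription elongation factor P-TEFb, had 24 and 131, and the ubiquitin ligase subunit RBCK1 had 40 and 133. NFATC2IP had 427 and 352 3'UTR reads but 332 and 37 intronic reads, so here the introns differed. Of 50 of these genes that could also be measured in *KRT19* KO cells, 48 had the higher ratio in the cytoplasm there, beside 98.6% of all members measured in that line.

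The 10 members with the highest overall ratio were chosen for that ratio, which is given as a description. They come from 3346 members with 500 or more reads summed over both libraries and 3 or more clusters in each. PTP4A1, a prenylated tyrosine phosphatase, held 5194 cytoplasmic and 51 nuclear reads, a ratio of shares of 64.5 with an exact 95% interval of 49.0 to 86.7. Its cytoplasmic reads lay in the 3'UTR (2776) and the 5'UTR (2216). OSTC, a subunit of the oligosaccharyltransferase complex, held 2688 and 36 reads, a ratio of 47.3. GCLM, the modifier subunit of the enzyme that starts glutathione synthesis, held 8856 and 141, a ratio of 39.8. For these and for PPIL1, C12orf23, TRIM59, MTPN, ARL6IP5 and YWHAZ the 3'UTR held more than any other class in the cytoplasm.

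YWHAZ, the 14-3-3 zeta adaptor protein, was the highest of them in reads, with 38381 in the cytoplasm and 806 in the nucleus, a ratio of 30.2 with an interval of 28.1 to 32.4. Its 3'UTR held 37584 and 129 reads, while its introns held 797 and 677. A single 3'UTR cluster held 93.5% of its cytoplasmic reads. The deadenylase CNOT7, with 1484 and 27 reads, was the exception in class, since its introns held 545 of the cytoplasmic reads and its 3'UTR 488. In *KRT19* KO cells, which had no part in the choice beyond the required cytoplasmic cluster, the 9 of these genes with clusters in both fractions had ratios between 10.0 (C12orf23) and 54.6 (PTP4A1). ARL6IP5 had no nuclear cluster there.

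Among the 10 lowest were the 9 genes EIF4A1, GAS5, LAMA5, PABPC1L, CAD, CDC25B, CHD3, GCN1L1 and MAD1L1. EIF4A1, the helicase of the cap-binding complex, held 44 cytoplasmic and 471 nuclear reads, a ratio of 0.0592 with an interval of 0.0424 to 0.0807, and 466 of the nuclear reads were intronic. In its 3'UTR the order was the other way, with 16 and 5 reads. GAS5, a noncoding host gene of small nucleolar RNAs, held 67 and 580 reads, of which 32 and 385 lay in clusters annotated to those small RNAs. LAMA5, a laminin chain of basement membranes, held 258 and 2132 reads, of which 206 and 1843 were intronic. CAD, the enzyme that begins pyrimidine synthesis, held 88 and 534 reads, and the spindle checkpoint gene MAD1L1 held 317 and 1393, all of them intronic. Counted by clusters instead of reads, EIF4A1 had 5 in the cytoplasm and 4 in the nucleus, and OSTC had 5 in each, so these ratios lie in the reads per cluster and not in the number of clusters. The 9 genes from EIF4A1 to MAD1L1 were also lower by reads in the cytoplasm in *KRT19* KO cells, with ratios from 0.0675 (GAS5) to 0.432 (CDC25B).

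**Figure D4:**
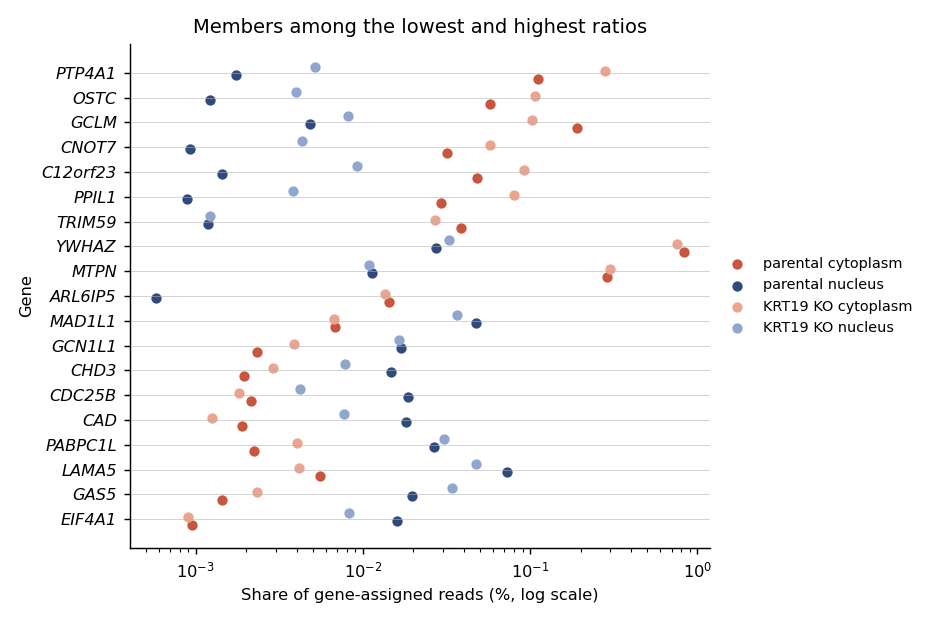
Share of gene-assigned reads (x axis, %, log scale) in each of the 4 libraries for the 10 members with the highest and for 9 of the 10 with the lowest parental ratio (y axis). The parental points of PTP4A1 differ 64.5-fold and those of EIF4A1 are ordered the other way, and in both genes the *KRT19* KO points keep the parental order.

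Exonic reads alone, that is 3'UTR, coding and 5'UTR together, gave the highest ratios to PPP1CB (301), VPS26A (268), YWHAZ (185), CMPK1 (172) and SC5D (160). VPS26A is a subunit of the retromer, which sorts endosomal cargo, and SC5D is an enzyme of cholesterol synthesis. VPS26A had 2104 3'UTR reads in the cytoplasm and 5 in the nucleus, and SC5D had 1100 and 5. The lowest exonic ratios need care. MTRNR2L12, a nuclear copy of mitochondrial ribosomal RNA, had 17 cytoplasmic and 8387 nuclear reads, but a cytoplasmic cluster of 36909 reads at the same place carries no gene name in the file and is not in this count. MT-ND1, a subunit of respiratory complex I, had 47 and 11556 reads, nearly all nuclear reads in 1 cluster, and without the leading cluster of each library its log2 ratio was 0.09. In the *KRT19* KO cytoplasm, clusters at the place of that cluster held 103402 reads, while 134 reads were assigned to MT-ND1. MT-ATP6 had 79 and 1783 reads in 2 clusters and 1. Reads of mitochondrial genes can be split with their nuclear copies, so these values are uncertain. PABPC1L and CAPRIN2 completed the 5, and CAPRIN2 had 26 and 294 coding reads.

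Genes that mark the fractions did not all follow them. NEAT1, the noncoding RNA of nuclear paraspeckles, held 1257 cytoplasmic and 2791 nuclear reads, a log2 ratio of -1.81, and KCNQ1OT1, a nuclear RNA that silences its imprinted neighbours, held 125 and 161, a log2 ratio of -1.02. MALAT1, a noncoding RNA of nuclear speckles, held 6825 and 3140 reads, a log2 ratio of 0.46, and was thus higher in the cytoplasmic library, as in *KRT19* KO cells (0.45). One site, printed above, held 4833 (70.8%) of the cytoplasmic MALAT1 reads and had no nuclear cluster. Outside that site MALAT1 had fewer cytoplasmic than nuclear reads in both lines, so its direction rests on the site. Of 7 members on the list of nuclear-retained noncoding RNAs, 4 were 2-fold or more lower in the cytoplasm, none was higher and the median was -1.02, beside 28.5% lower, 17.3% higher and a median of -0.47 over all members. The others named by rule, PVT1 with 3372 and 5722 reads and FTX with 2185 and 2362, had log2 ratios of -1.42 and -0.77. The part of these markers in the class shares was not tested. HNRNPK itself held 251 and 402 reads, with a parental log2 ratio of -1.34 and a *KRT19* KO one of -0.04. KRT19 was no member, with 1 parental cytoplasmic cluster of 7 reads and 5 reads in the *KRT19* KO cytoplasm, too few to check the genotype.

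Among 7 snoRNA host and other exported noncoding RNAs, 1 was 2-fold or more higher and 4 were lower, with a median of -1.10, beside 17.3% and 28.5% of all members. SNHG16 held 842 and 178 reads, ZFAS1 837 and 1172, and SNHG5 294 and 398. Of the 12 mitochondrially encoded members, 9 had clusters in both fractions, 2 of them higher, 3 lower and 4 between, with a median of -0.74. Another 2 had a nuclear cluster only and 1 a cytoplasmic cluster only. MT-ND4 held 8924 and 9434 reads, and the ribosomal RNA gene MT-RNR2 held 23604 reads in the cytoplasm and no nuclear cluster in parental cells.

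The other lists are read beside the 17.3% of all members that were 2-fold or more higher and the 28.5% that were lower. RNA-binding and splicing proteins included members on both sides. Of 24 hnRNP and poly(C)-binding proteins, 8 were higher, 5 lower and 11 between, with a median of -0.08. HNRNPU held 2871 and 411 reads, HNRNPC 2622 and 2347, and PCBP2, a KH-domain relative of HNRNPK, 1380 and 1560. Their log2 ratios of shares were 2.15, -0.50 and -0.84. The 3'UTR reads of the list had a median of 2.53 over 18 genes and the intronic reads one of -1.03 over 22, with no minimum of reads per class. Of 14 SR splicing factors and their kinases, 3 were higher, 5 lower and 6 between, with a median of -0.52. SRSF2 held 9986 and 1026 reads and SRSF1 9466 and 571, nearly all in the 3'UTR, while the kinase SRPK1 held 1504 and 1713, mostly intronic.

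In the translation machinery, 9 of 33 translation factors with clusters in both fractions were higher, 6 lower and 18 between, with a median of -0.07. EIF1, which helps select the start codon, held 3414 and 239 reads, all in the 3'UTR, whereas EIF4B held 1210 and 1205 and EIF4G3 858 and 1406. The log2 ratios of shares were -0.65 for EIF4B and -1.37 for EIF4G3. Of 76 cytosolic ribosomal protein genes with a cluster only 9 were members, and 3 were higher, 3 lower and 3 between, with a median of -0.83. RPS23 held 962 and 69 reads, all in the 3'UTR, and RPL9 223 and 513, all intronic. RPS24 held 365 and 413. Among 8 ER chaperones, 3 were higher, 2 lower and 3 between, with a median of 0.38. The disulfide isomerase PDIA6 held 2836 and 189 reads, calnexin (CANX) 1081 and 278, and DNAJC3 935 and 379.

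Growth genes of this cancer line also divided by class. Of 14 cell cycle members, 3 were higher, 1 lower and 10 between, with a median of 0.35. CCND1, the cyclin D1 gene, held 6588 and 395 reads, all of the cytoplasmic ones in the 3'UTR. Its partner kinase CDK6 held 4925 and 1939 reads, split into 3458 and 204 in the 3'UTR and 1467 and 1735 in introns. E2F3 held 1531 and 1237, a log2 ratio of shares of -0.35. Of 17 members of the EGFR and RAS pathway, 3 were higher, 5 lower and 9 between, with a median of -0.11. The GTPase NRAS held 2726 and 137 reads, mostly 3'UTR, the receptor EGFR 6863 and 5732, mostly intronic, and MET 2112 and 1883. Their log2 ratios of shares were 3.66, -0.40 and -0.49.

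The cytoskeleton list had a low median. Of its 17 members 1 was higher, 9 lower and 7 between, with a median of -1.07. Among the leading genes were ACTN1 (1296 and 1727 reads) and VCL (1418 and 1164), with log2 ratios of -1.07 and -0.37. ACTN1 still had 191 3'UTR reads in the cytoplasm against 7 in the nucleus. Of 27 matrix and adhesion members, 3 were higher, 10 lower and 14 between, with a median of -0.49, and the leading ones were THBS1 (4997 and 402, mostly 3'UTR), COL13A1 (1742 and 2758, mostly intronic) and CD44 (2111 and 1168). Of 127 zinc finger genes, 22 were higher, 24 lower and 81 between, with a median of -0.21. ZNF664 (4799 and 326) and ZNF800 (3563 and 631) lay on the cytoplasmic side and ZNF804A (3825 and 2560) near 0. Of 4 oncofetal RNA-binding and HMGA genes 1 was lower and none higher, with a median of -0.59. The leading ones were HMGA2 (10140 and 10367), IGF2BP2 (3812 and 3374) and IGF2BP3 (1798 and 1205). Their log2 ratios of shares were -0.69, -0.48 and -0.08. The only replication-dependent histone gene among the members, HIST1H2AC, held 160 and 54 reads.

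**Figure D5:**
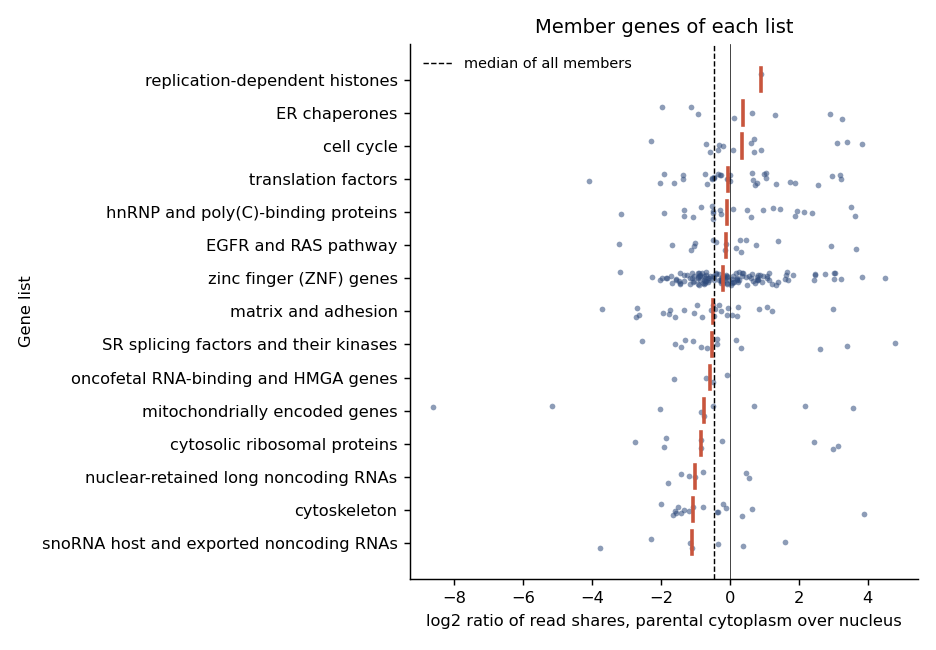
Log2 ratio of read shares, parental cytoplasm over nucleus (x axis), of the members of each gene list (y axis), with 1 blue point per gene, a red bar at the list's median and a dashed line at the median of all members (-0.47). List medians run from -1.10 to 0.38 for lists with more than 1 member, and single genes of most lists lie on both sides of 0.

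The overall ratio went with the length of the gene. Of the members, 5278 (90.3%) matched a gene of the GENCODE annotation on the same chromosome, and those with clusters in both fractions were split into quartiles by the length of the gene in the genome. In the shortest quartile, up to 34.7 kb, the median log2 ratio was 0.20, and 484 of 1310 genes (36.9%) were 2-fold or more higher in the cytoplasm. In the longest, above 134 kb, the median was -0.70 and 35 of 1309 (2.67%) were higher. The medians between were -0.40 and -0.51. The 3'UTR ratio of the genes that had one changed little over the same quartiles, from 2.10 to 1.84, and the intronic ratio went from -1.17 to -0.86. No minimum of reads in the class was set here, unlike for the class medians over all members given above. The share of cytoplasmic reads in 3'UTRs was 64.9% in the shortest genes and 18.9% in the longest, and that of nuclear reads 17.6% and 2.21%. The part of this in the length trend was not tested.

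Sites were compared on the same strand, with at least 1 base of overlap. Among members, 17.1% of the 17524 cytoplasmic 3'UTR clusters overlapped a nuclear cluster, and 47.1% of the 6400 nuclear 3'UTR clusters overlapped a cytoplasmic one. For introns these shares were 26.2% of 111171 and 24.1% of 120711. Among clusters of 100 or more reads, 47.1% of 2979 cytoplasmic 3'UTR clusters and 73.7% of 270 nuclear ones were also found in the other fraction, against 72.7% of 1442 and 71.1% of 1608 in introns. Many strong cytoplasmic 3'UTR sites thus had no listed counterpart in the nuclear library, which held 170985 3'UTR reads in members against 1641238 in the cytoplasm, while strong intronic sites were mostly shared in both directions. Overlapping clusters that named a member carried the same gene name in 35266 of 35269 pairs.

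Clusters in both fractions held runs of C more often than their flanks. C made up 25.5% of the cluster bases in the cytoplasm and 27.4% in the nucleus, below A and T. G made up 6.74% and 8.04%. The word CCC, searched in the sense of the RNA, occurred in 39.2% (38.97 to 39.48%) of cytoplasmic and 44.6% (44.35 to 44.87%) of nuclear member clusters, whose median lengths were 28 and 29 bases. Genome sequence of the same length 100 bases beyond each end held it in 21.2% and 23.5%. This flanking sequence was not matched to the clusters in base composition, and the part of composition in the difference was not tested. The gap between fractions was wider in 3'UTRs, at 33.6% and 44.1% with flanks at 21.6% and 24.2%, than in introns, at 40.0% and 44.5% with flanks at 20.9% and 23.2%. In *KRT19* KO cells the 3'UTR shares were 34.9% in the cytoplasm and 43.9% in the nucleus. Weighted by reads, the shares over all classes were 52.9% and 54.5%, with 47.9% and 57.7% in 3'UTRs and 56.4% and 53.2% in introns. The single SLCO5A1 cluster held 323758 of the 2216127 cytoplasmic intronic reads. Read-weighted shares without it were not measured, so the order of the fractions in introns and over all classes is uncertain. The longer words UUCCC and UCCCC, which contain CCC, were in 18.5% of cytoplasmic and 20.8% of nuclear clusters, with flanks at 4.81% and 5.13%. In the printed sites of GCLM, OSTC and MALAT1 the word is absent from the 30 bases shown.

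The libraries of *KRT19* KO cells gave a further pair of fractions for the same genes. Over 5770 members with a cluster in all 4 libraries, the parental and *KRT19* KO log2 ratios had a Pearson correlation of 0.73 and a Spearman correlation of 0.70 across genes, which are not independent replicates. Of 985 of these that were 2-fold or more higher in the parental cytoplasm, 772 (78.4%) were also 2-fold or more higher in the *KRT19* KO cytoplasm, beside 20.8% of all 5770. Of 1647 that were lower, 1259 (76.4%) were lower there as well, beside 44.4%. The median over these members was -0.48 in the parental pair of libraries and -0.77 in the other. Introns were lower in the cytoplasm by more in *KRT19* KO cells, with a median of -1.75 over 5024 genes, and their 3'UTR median was 2.69 over 2264 genes. Whether the lines differ in this was not tested, with 1 library of each fraction.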

How the data were processed

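HNRNPK PAR-CLIP of the parental and *KRT19* KO cytoplasm and nucleus was analysed, with 1 library each. The authors collapsed identical reads ahead of trimming adapters and unique molecular identifiers, aligned them to hg19, called clusters with PARalyzer in PARpipe and deposited raw counts of reads per cluster, with position, sequence, class and gene name. All 527732 member clusters on reference chromosomes equalled GRCh37, so that build was used, although the labels list hg38. Reads were summed per gene and class and divided by the gene-assigned reads of the library. No pseudocount was used, and genes without a cluster in 1 library got no ratio. With no replicates no test was run. Calls are 2-fold differences, and intervals are Wilson or exact binomial (95%). Members and gene lists were chosen with earlier results of these data known. Named genes were HNRNPK, KRT19, MALAT1 and NEAT1, the 5 members with the most reads, the extremes of the whole-gene, exonic and within-gene ratios, and the 3 members of each list with the most reads. Some genes named by the rule are not reported here. Genes outside this rule (KCNQ1OT1 is a fixed marker) are not singled out. Functions were tested on simulated counts. Alternatives covered unique reads, cluster counts, read minimums, leading clusters, scaling and member rules, and leaving out SLCO5A1, mitochondrial genes or the parental-only bins was chosen after seeing the data. Python 3.11.15, numpy 2.4.6, pandas 2.3.3, scipy 1.17.1 and pysam 0.24.0 were used.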

Additional observations from a re-analysis of the deposited data

Results flagged for a closer look

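Between the parental pair of libraries and the *KRT19* KO pair some values changed direction, and none of these differences was tested, since each pair is 1 library a side. RNU4-2, the U4 spliceosomal RNA, had a log2 ratio of cytoplasmic to nuclear share of 0.51 in parental and -1.09 in *KRT19* KO cells. With it, the small nuclear RNA share of member reads was 1.03 times the nuclear one in parental and 0.487 times in *KRT19* KO cells. SNHG5 had -1.10 in parental and 1.49 in *KRT19* KO cells. Its 333 parental nuclear reads annotated to a small nucleolar RNA lie in 1 cluster, which neither *KRT19* KO library holds. The list of snoRNA host and exported noncoding RNAs had a parental median of -1.10 and a *KRT19* KO median of 0.91. The coding share of member reads was 0.888 times the nuclear one in parental and 1.10 times in *KRT19* KO cells, and the 5'UTR share 0.678 and 7.58 times. Without the MT- and MTRNR2L genes neither changed direction, with 1.24 and 2.61 times for coding sequence and 1.22 and 1.76 times for the 5'UTR. In *KRT19* KO cells 124045 cytoplasmic and no nuclear reads were assigned to MTRNR2L12, while nuclear clusters at its site held 17961 reads.

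Signal was also present outside the measured genes. The cluster at the MTRNR2L12 site without a gene name held 36909 parental cytoplasmic reads. The 215 bins that only the parental cytoplasmic library covered held 3418 clusters.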

How the results depend on the processing

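With 1 library a side, no replicate could be left out. No paired analysis was possible because the values come from no test and the PAR-CLIP labels carry no replicate numbers. The count of members 2-fold or more higher in the cytoplasm, the count lower and the median log2 ratio were, with clusters counted, 502, 373 and 0.018, and without the leading cluster of each gene the lower count was 1070 and the median -0.20. With the median set to 0, the lower count was 814 and the median 0, and with clusters of 10 or more reads the median was -0.57. With 500 or more reads the lower count was 744 and the median -0.37. Counting clusters or setting the median to 0 covers the same 5799 members. The 500-read rule and leaving out leading clusters leave fewer genes with a ratio. The counts 744 and 1070 are therefore not comparable with the 1652 of the main setting. The 3'UTR share in cytoplasm and nucleus, then the intron share in both, was 41.0, 6.88, 48.5 and 81.4% with unique reads, 12.2, 4.58, 77.7 and 86.4% with clusters, 41.4, 6.82, 47.9 and 81.3% with clusters of 10 or more reads, and 25.5, 4.87, 64.6 and 86.0% without leading clusters. It was 38.6, 6.32, 51.2 and 82.6% with 500 or more reads, and 38.3, 6.49, 51.8 and 83.3% without mitochondrial genes. Without SLCO5A1 the cytoplasmic shares were 41.1 and 47.4%, and with no *KRT19* KO cluster required 38.3, 50.8 and 81.9% (nuclear intron). The share of genes with the higher 3'UTR-to-intron ratio, and its median fold, was 98.3% and 14.1 with unique reads, 94.0% and 2.89 with clusters (10 or more per class), and 92.6% and 6.21 without leading clusters. The CCC share in cytoplasm and nucleus was 52.9 and 54.5% of reads, an order that is uncertain because the SLCO5A1 cluster is included. By clusters it was 33.6 and 44.1% in 3'UTRs, 40.0% in cytoplasmic introns and 43.1 and 46.4% with 10 or more reads. For UUCCC and UCCCC it was 18.5 and 20.8%. Of 486 values of named genes under the alternatives, 442 kept their direction, but the alternatives differed. With clusters counted 54 of 82 kept it, without leading clusters 70 of 78 and with the median set to 0 75 of 82. With unique reads 81 of 82 kept it, and with clusters of 10 or more reads 80 of 80. Scaling to all reads in clusters, which moves all genes alike, kept 82 of 82. Among genes that differed 2-fold or more by reads, counting clusters turned the direction of CANX (-0.12), EIF4A1 (0.28), HNRNPK (0.11), MT-ATP6 and MTRNR2L12 (0.96 each), RBM19 (0.044), RPL9 (0.54), RPS23 (-0.36), SNHG5 (0.47) and ZNF664 (-0.14). EIF1, OSTC, PDIA6, RNY1 and SNHG16 had equal numbers of clusters in both libraries, so the sign of their values (-0.041 each) comes from the library totals alone. Leaving out leading clusters turned the direction of MT-ND1 (0.090), RPL9 (0.59) and SNHG5 (1.37). The causes were not tested.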
